A study of Mus musculus with 6 samples.

Results

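The genes of collagen and laminin chains were examined in mouse embryonic stem (ES) cells, pluripotent cells taken from the early embryo. Members were all rows whose symbol names a collagen chain (Col, a number, a, a number) or a laminin chain (Lam, then a, b or c, and a number). This gave 55 of the 24043 gene rows, 44 collagen and 11 laminin genes. RNA-seq libraries came from 3 wild-type samples and from 3 samples labelled Q-KO, a name given to cells that carry no G1 cyclin. All 6 were grown in Knockout DMEM with LIF and inhibitors of MEK (PD184352) and GSK3 (CHIR99021). The labels name neither a feeder layer nor a number of clones, and they do not say that replicates were separate cultures, so that p-values speak of the spread among these 6 samples alone, possibly a technical one.

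Collagens are secreted proteins of 3 chains wound into a triple helix. Type IV collagen forms the network of basement membranes, the thin matrix sheets under epithelia, and type XVIII collagen is a proteoglycan found there. Laminins are cross-shaped trimers of an alpha, a beta and a gamma chain that assemble into the other network of these sheets, and they are the first matrix of the early embryo. Fibrillar collagens such as types I and III form the tensile fibres of connective tissue and are the main products of fibroblasts. Embryonic fibroblasts are also the usual feeder cells of ES cell culture.

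Values are FPKM, fragment numbers scaled to the length of the gene and to the mapped fragments of the library, so levels can be set side by side between genes. The summed FPKM was 525134 to 641715 per library. The sources used here give no fragment numbers, and the steps between low values put sequencing depth, relative to wild-type replicate 1, at 1.1 to 1.21 elsewhere. ES cell markers were expressed in every library, and Pou5f1 (Oct4) lay between 589 and 797 FPKM. Not all were even. Zfp42 was at 363 FPKM in wild-type replicate 3, 177 FPKM in Q-KO replicate 1 and 74.7 to 78.9 FPKM in the others. Utf1 was at 9.34 FPKM in wild-type replicate 2 and at 30.1 to 37.2 FPKM elsewhere. Ccnd1, Ccnd3 and Ccne2, which are 3 of the 5 G1 cyclins, were lower in Q-KO (limma adjusted p = 0.0124, 0.0101 and 0.0182), and Ccnd2 was below the filter. Ccne1 was at 37.5 to 55.9 FPKM in the wild type against 65.3 to 87.3 FPKM in Q-KO libraries (limma adjusted p = 0.113). Ccne1 RNA was thus not lower in Q-KO libraries, and gene-level values cannot show whether a gene is deleted. All directions below are those of the libraries so labelled. Pearson's r of log2(FPKM + 1) across genes was 0.942 to 0.973 within wild-type, 0.964 to 0.979 within Q-KO and 0.924 to 0.955 between them. Wild-type replicate 3 gave the lowest r with each group and stood apart.

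The group of genes was dominated by basement membrane chains, and 0 of the 14 members that could be tested changed between the groups (limma, Benjamini-Hochberg adjusted p under 0.05). Over all 11573 genes averaging at least 1 FPKM, 4.06% changed, 3.04% higher and 1.02% lower in Q-KO libraries. At an unadjusted p under 0.05 there were 3 members, all higher in Q-KO libraries, Col9a2 and Lamb1 among them, against 21.5% of all genes tested. These 3 had separate group ranges, and for none was the Q-KO range the lower one. Among all genes tested 27.7% had separate ranges, 18.2% with Q-KO higher and 9.44% with Q-KO lower. Of the 14 log2 changes 13 were above 0, beside 59.3% of all genes tested, and 11 and 8 were above 0 after median-of-ratios scaling and quantile normalization, beside 44.7% and 46.8%. Without wild-type replicate 3 there were 9. The median was 0.19 for the members and 0.07 over all genes tested. The latter was -0.04 after median-of-ratios scaling and -0.03 after quantile normalization, so a change near 0.1 cannot be told from the choice of scale. Among all genes 74.9% of the calls were rises, and 55.6% and 54.0% after these scalings.

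**Figure D1:**
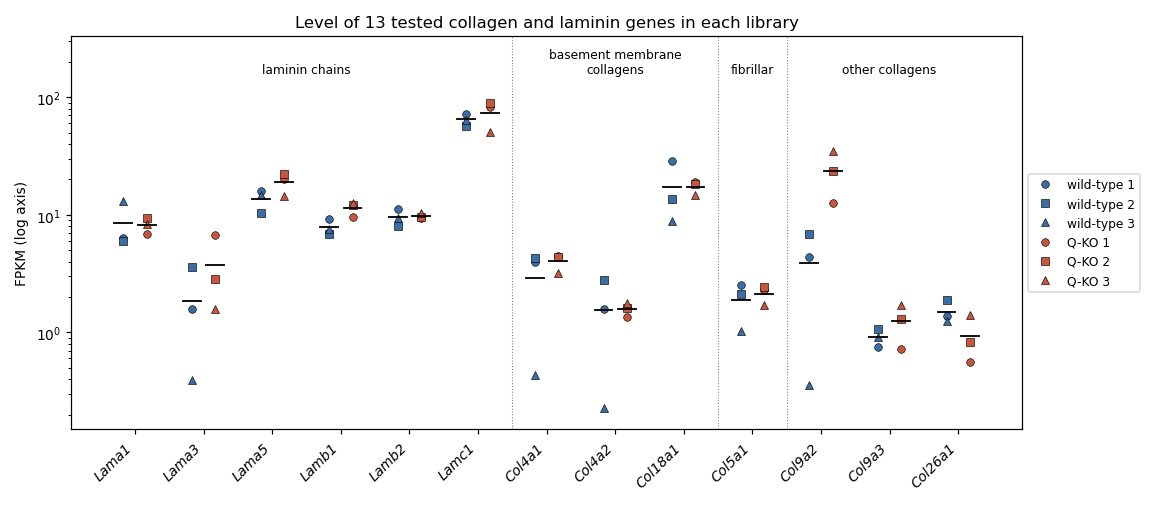
FPKM on a log axis of 13 of the 14 tested members in each library, wild-type in blue and Q-KO in red, with a symbol for each replicate and a bar at the group mean. Lamc1 is the highest in all 6 libraries, Col9a2 has separate group ranges, and the wild-type replicate 3 values of Lama3, Col4a1, Col4a2 and Col9a2 lie far below the rest.

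The 41 members below the filter were 8 of 18 basement membrane genes, 10 of 11 fibrillar collagens and 23 of 26 other collagens. Summed over the 18 genes, basement membrane members were at 157, 118 and 127 FPKM in the wild type, in the order of the replicate numbers as in all such series, against 170, 179 and 128 FPKM in Q-KO libraries. The group ranges overlapped. Fibrillar members summed to 4.63, 4.19 and 3.75 FPKM in the wild type against to 10.6, 4.93 and 3.77 FPKM in Q-KO libraries. Only Q-KO replicate 1 left the range of 3.75 to 4.93 FPKM held by the other 5. Basement membrane members thus made up 87.8 to 94.1% of the FPKM of all members in wild-type and 74.1 to 86.0% in Q-KO libraries. The remaining 26 collagens summed to 8.06, 12.1 and 4.19 FPKM in wild-type against 17.1, 28.1 and 41.0 FPKM in Q-KO libraries, and Col9a2 was the largest part of each Q-KO sum. These sums are descriptions and were not tested.

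**Figure D2:**
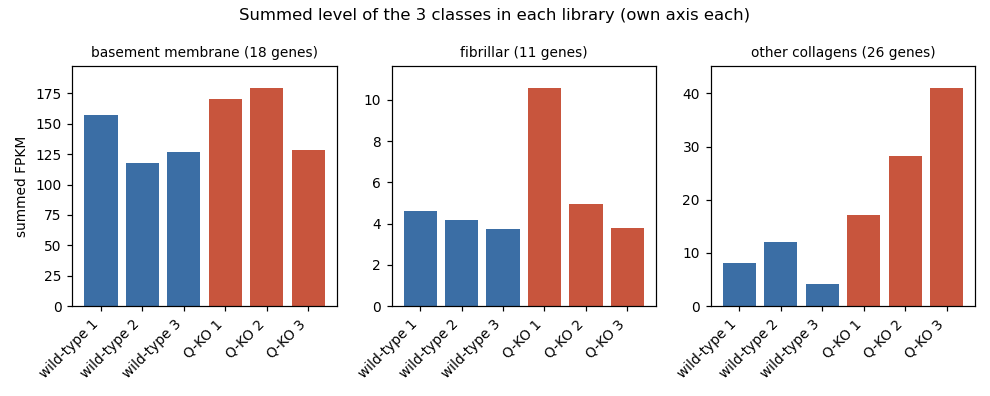
Summed FPKM of the basement membrane (18 genes), fibrillar (11 genes) and other collagen members (26 genes) in each library, wild-type in blue and Q-KO in red, each panel with its own axis. Fibrillar sums stay at 3.75 to 4.93 FPKM apart from 10.6 FPKM in Q-KO replicate 1.

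Among gamma chains, Lamc1, the gamma1 chain found in most laminins, was the most abundant member of all. It was at 72.7, 57.3 and 64.0 FPKM in the wild type against 82.2, 89.6 and 50.2 FPKM in Q-KO libraries. The lowest and the highest values were both Q-KO, and the log2 change was 0.16 (95% interval -0.35 to 0.67, adjusted p = 0.729). Lamc3 did not exceed 0.0902 FPKM in any library.

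The beta chains were split almost evenly between Lamb1 and Lamb2. Lamb1, the beta chain of the early embryonic laminins, was at 9.26, 6.89 and 7.57 FPKM in the wild type against 9.52, 12.2 and 12.6 FPKM in Q-KO libraries. The ranges were separate by a small margin, with a log2 change of 0.48 (SE 0.17, interval 0.09 to 0.87, adjusted p = 0.156). Lamb2, the beta chain typical of mature basement membranes such as those of the kidney and the synapse, was at 11.2, 7.97 and 9.32 and at 9.40, 9.64 and 10.3 FPKM (log2 change 0.05, interval -0.31 to 0.41). Lamb2 was the larger part in each wild-type library, where Lamb1 made up 43.8 to 46.0% of the beta chain FPKM. In the Q-KO libraries Lamb1 made up 49.4, 55.4 and 54.6%, and was the larger part in each. Since both numerator and denominator are members, this shift is given without a test. Lamb3, the beta3 chain of laminin-332, was between 0.108 and 0.392 FPKM.

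Lama5 led the alpha chains in every library. Lama5, the alpha5 chain of laminin-511, a substrate on which ES cells can be grown, was at 16.1, 10.3 and 14.7 FPKM in the wild type against 20.3, 22.4 and 14.4 FPKM in Q-KO (log2 change 0.44, interval -0.05 to 0.94, adjusted p = 0.279). Q-KO replicate 3 lay inside the wild-type range and the other Q-KO libraries above it. Lama1, the alpha chain of laminin-111, was at 6.32, 5.96 and 13.0 and at 6.84, 9.41 and 8.32 FPKM. Wild-type replicate 3 was the highest, and the log2 change of 0.03 (interval -0.60 to 0.67) was below 0 after median-of-ratios scaling (-0.09) or quantile normalization (-0.06). Lama3, the alpha chain of laminin-332, was the most uneven laminin, at 1.59, 3.6 and 0.390 FPKM in the wild type against 6.72, 2.83 and 1.59 FPKM in Q-KO libraries. The groups overlapped (log2 change 0.74, SE 0.50, adjusted p = 0.44), and without both wild-type replicate 3 and Q-KO replicate 1 the change was -0.13.

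Lama4, an alpha chain of vessel and mesenchymal basement membranes, was below the filter but differed between the groups in range. It was at 0.0920, 0.151 and 0.199 FPKM in the wild type against 0.630, 0.409 and 0.487 FPKM in Q-KO libraries. Lama2, the muscle alpha chain, was at most 0.0159 FPKM. When no filter was applied, Lama4 passed the test (log2 change of FPKM + 1 of 0.39, limma adjusted p = 0.0473), as did Col7a1 (0.19, adjusted p = 0.0209) and Col14a1 (0.07, adjusted p = 0.0497). In that fit 2.65% of all 19581 genes passed, and 2.17% passed with Q-KO higher. Col7a1, the anchoring fibril collagen, was at 0.0840, 0.0539 and 0.0857 FPKM and at 0.210, 0.230 and 0.234 FPKM. Col14a1, a collagen that binds along fibrils, was at most 0.0135 FPKM in the wild type against 0.0802, 0.0515 and 0.0583 FPKM in Q-KO libraries. In all, 8 of the 41 members below the filter had a separate, higher range in Q-KO and 0 a lower one, where 18.2% and 4.16% of the 8008 genes below the filter and above 0 in some library did. Col4a3, at 0 in every library, is among the 41.

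**Figure D3:**
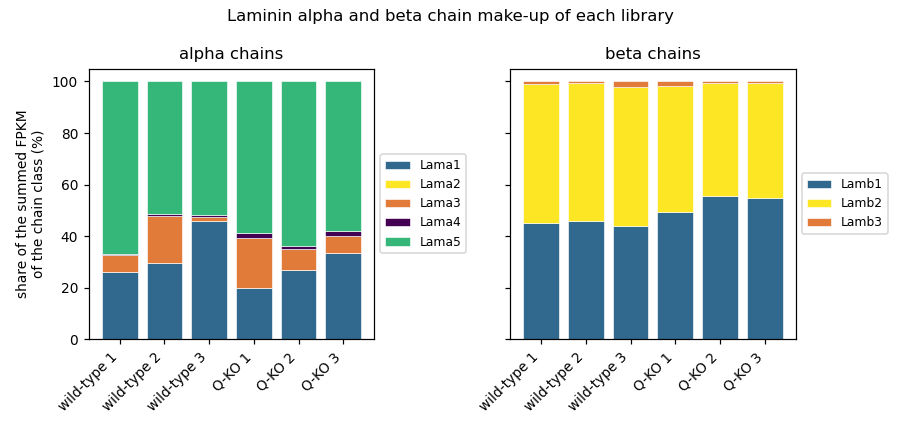
Share in percent of each laminin chain in the summed FPKM of its class (alpha or beta) for each library, as stacked bars. Lama5 is the largest alpha share in all 6 libraries, while Lamb1 is under Lamb2 in the wild-type and over it in the Q-KO libraries.

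Among the type IV chains, Col4a1 and Col4a2, which together form the common collagen IV trimer, were expressed and the other 4 were not above 0.139 FPKM. The type IV genes lie in head-to-head pairs. The promoter windows of Col4a1 and Col4a2 are shown because these genes were low together in 1 library, and that of Col9a2 because it had the largest change. The windows run from 250 bases before to 50 after the annotated start, as RefSeq gives them on GRCm38.p6 (the FPKM values were made with mm9). Capitals mark the 78 bases that the Col4a1 and Col4a2 windows share, and in Col9a2 the matches to GGGCGG on either strand.
Col4a1, chr8:11312777-11313076, minus strand: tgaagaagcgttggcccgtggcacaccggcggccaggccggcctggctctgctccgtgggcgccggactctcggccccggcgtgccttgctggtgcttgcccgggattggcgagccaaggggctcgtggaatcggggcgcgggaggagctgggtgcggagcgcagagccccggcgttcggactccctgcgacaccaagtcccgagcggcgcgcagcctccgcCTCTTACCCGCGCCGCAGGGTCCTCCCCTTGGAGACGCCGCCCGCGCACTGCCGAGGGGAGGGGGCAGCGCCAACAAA
Col4a2, chr8:11312555-11312854, plus strand: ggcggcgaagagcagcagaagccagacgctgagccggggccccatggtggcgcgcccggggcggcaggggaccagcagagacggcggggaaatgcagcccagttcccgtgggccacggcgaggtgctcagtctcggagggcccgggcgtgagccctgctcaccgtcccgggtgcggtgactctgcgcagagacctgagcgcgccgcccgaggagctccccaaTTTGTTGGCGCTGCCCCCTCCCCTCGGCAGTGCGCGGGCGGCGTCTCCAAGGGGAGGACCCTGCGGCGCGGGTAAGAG
Col9a2, chr4:121039316-121039615, plus strand: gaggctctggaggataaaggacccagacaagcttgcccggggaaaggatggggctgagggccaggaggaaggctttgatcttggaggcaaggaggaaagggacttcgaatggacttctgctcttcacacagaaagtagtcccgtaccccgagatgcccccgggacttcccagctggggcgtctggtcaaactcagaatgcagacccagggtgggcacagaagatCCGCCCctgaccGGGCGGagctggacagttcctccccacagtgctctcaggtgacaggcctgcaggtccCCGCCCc

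The annotated start sites of Col4a1 and Col4a2 are 21 bases apart on opposite strands, so that the first bases of the transcripts overlap. Strand-specific counting is not stated, and fragments there cannot be assigned to one gene. The Col4a1 and Col4a2 windows hold 1 match to CCAAT each on either strand, and the Col9a2 window holds none. GGGCGG occurs 1 time in the Col4a1, 3 times in the Col4a2 and 3 times in the Col9a2 window, again on either strand, and the Col4a1 match lies in the shared stretch. Of all 32851 windows of 300 bases, 37.4% held CCAAT and 35.7% held GGGCGG. Among the 44 windows of the 40 members in the table, 31.8% and 59.1% did. TATAAA was in none of the 3 windows shown and in 13.6% of all. These matches describe letters only. Searched motifs were counted apart from each other, so that bases at the end of one may belong to another.

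Col4a1 was at 3.97, 4.29 and 0.430 FPKM in the wild type against 4.50, 4.36 and 3.21 FPKM in Q-KO libraries. Col4a2 was at 1.59, 2.79 and 0.225 FPKM and at 1.34, 1.62 and 1.78 FPKM. Both were low in wild-type replicate 3, 7.45 times (Col4a1) and 5.95 times (Col4a2) below the next lowest library, and the other 5 libraries overlapped. The FPKM ratio of Col4a1 to Col4a2 was 2.497, 1.54 and 1.91 in wild-type and 3.36, 2.70 and 1.80 in Q-KO libraries. The ratio in wild-type replicate 3 lay inside the range of the others, while both levels lay below it. The log2 change was 0.57 (interval -0.49 to 1.64, adjusted p = 0.516) for Col4a1 and 0.17 (interval -0.70 to 1.03) for Col4a2. Without wild-type replicate 3 these were -0.04 and -0.29. Col18a1, whose C-terminal fragment is endostatin, was the most abundant basement membrane collagen, at 28.8, 13.8 and 8.81 FPKM in the wild type against 19.03, 18.3 and 14.7 FPKM in Q-KO libraries. The wild-type values enclosed the Q-KO ones (log2 change 0.17, interval -0.66 to 0.99), and without wild-type replicate 3 the change was -0.20.

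Several members had their lowest value by far in wild-type replicate 3. Of the 14 tested members 4 (Col4a1, Col4a2, Col9a2 and Lama3) were at least 4 times lower there than in any other library, a rule set after these values were seen, and 0 were so in each other library. Over all genes tested this held for 1.19% in wild-type replicate 3, for 0.562% and 0.112% in wild-type replicates 1 and 2, for 0.0346% each in Q-KO replicates 1 and 3 and for 0.0259% in Q-KO replicate 2. Genes of chromosomes 8 and 11 were higher in this library than in the mean of the other wild-type libraries, by a median log2 of 0.25 for each, against -0.02 over all genes. Col4a1 and Col4a2 lie on chromosome 8 and were lower there, against that shift. The bulk values cannot tell fewer cells that express a gene from less RNA per cell.

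**Figure D4:**
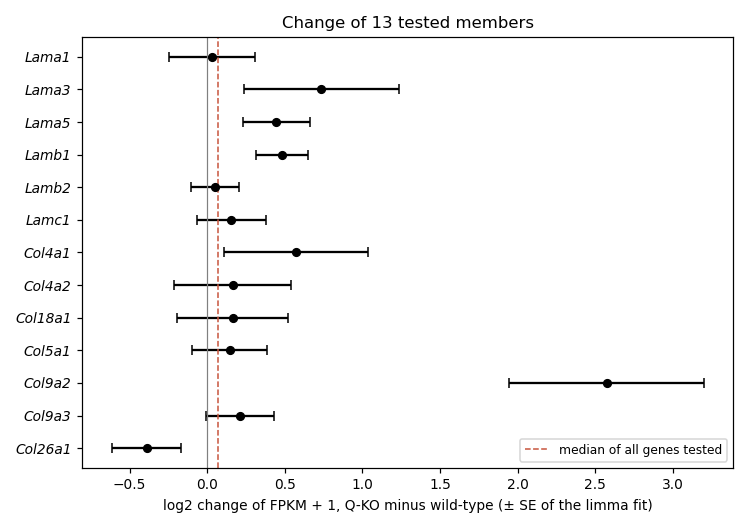
Log2 change of FPKM + 1, Q-KO minus wild-type, for 13 of the 14 tested members, with the SE of the limma fit as bars and the median of all genes tested as a dashed line. Col9a2 at 2.57 stands to the right of the other 12, which lie between -0.39 and 0.74.

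Col9a2 showed the largest difference of all members. It encodes a chain of type IX collagen, which in cartilage decorates type II fibrils. It was at 4.35, 6.91 and 0.358 FPKM in the wild type against 12.7, 23.6 and 34.9 FPKM in Q-KO libraries. Each Q-KO library was above each wild-type one, with a log2 change of 2.57 (SE 0.63, interval 1.13 to 4.01). It did not pass over all genes (limma adjusted p = 0.0632), but did without wild-type replicate 3 (1.82, adjusted p = 0.0311), without wild-type replicate 2 (3.09, adjusted p = 0.0492), and without both wild-type replicate 3 and Q-KO replicate 1 (2.19, adjusted p = 0.0094). Over all 15 alternatives its adjusted p ran from 0.0094 to 0.242.

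The partner chains of type IX collagen were at lower levels than Col9a2 in the Q-KO libraries. Col9a3 was at 0.747, 1.06 and 0.910 FPKM in the wild type against 0.724, 1.29 and 1.70 FPKM in Q-KO libraries, with overlapping ranges (log2 change 0.21, interval -0.29 to 0.72). Its value is uncertain because Col9a3 overlaps the protein-coding gene Tcfl5 in the RefSeq annotation and the strand setting is not stated. Lamc1, Lama3, Lama5, Col18a1, Col5a1 and Col26a1 overlap annotated non-coding genes or pseudogenes there, so a like limit holds for them. Col9a1 was at most 0.0297 FPKM. Col2a1, the fibrillar collagen that type IX accompanies in cartilage, was at 0.415, 0.412 and 0.183 FPKM in the wild type against 0.548, 0.570 and 0.549 FPKM in Q-KO libraries, below the filter with separate ranges. Col26a1 was the only tested member with a change below 0, at 1.38, 1.89 and 1.24 FPKM against 0.559, 0.824 and 1.41 FPKM (log2 change -0.39, interval -0.91 to 0.12, adjusted p = 0.356).

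Of the fibrillar collagens only Col5a1 was tested. It encodes a chain of type V collagen, which sets the diameter of type I fibrils. It was at 2.51, 2.13 and 1.04 FPKM in the wild type against 2.28, 2.41 and 1.71 FPKM in Q-KO libraries, with a log2 change of 0.15 (interval -0.41 to 0.70) and overlapping ranges. The change was -0.06 after quantile normalization and -0.09 without wild-type replicate 3. Col11a1, a fibrillar collagen of cartilage, reached 1.53 FPKM in wild-type replicate 3 and was at 0.122 to 0.844 FPKM in the other libraries.

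The collagens that define fibroblasts were near 0 except in Q-KO replicate 1. Col1a1 and Col1a2, the chains of type I collagen, were at 1.86 and 1.16 FPKM there. In the other 5 libraries Col1a1 was at 0.0931 to 0.168 FPKM and Col1a2 at 0.0043 to 0.0442 FPKM. Col3a1, the chain of type III collagen, was at 1.35 FPKM in Q-KO replicate 1 and at most 0.0322 FPKM elsewhere, 41.8 times lower. Col5a2, a type V chain, was at 1.41 FPKM in Q-KO replicate 1 and at 0.477 and 0.407 FPKM in Q-KO replicates 2 and 3. It was at 0.0719, 0.368 and 0.341 FPKM in the wild type, so each Q-KO value lay above each wild-type one.

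Some collagens that do not form fibrils were also highest in this library, while others such as Col15a1, Col16a1 and Col8a2 were not. By a rule set after the values were seen (at least 5 times the next library and at least 0.05 FPKM), 7 of 55 members stood out in Q-KO replicate 1: Col1a1, Col1a2, Col3a1, Col6a2, Col6a3, Col8a1 and Col12a1. In each of the other 5 libraries 0 did. Over all 19581 genes not at 0 everywhere the rule took 0.643% in Q-KO replicate 1 and 0.0562%, 0.143% and 0.455% in wild-type replicates 1, 2 and 3, and 0.102% and 0.0919% in Q-KO replicates 2 and 3. Col6a2 and Col6a3, chains of the beaded filament collagen VI, were at 0.228 and 0.190 FPKM there and at most 0.0183 and 0.0239 FPKM elsewhere. Col12a1, a collagen on the surface of fibrils, was at 0.242 FPKM against at most 0.0119 FPKM, and Col8a1, a network collagen, was at 0.202 FPKM and listed at 0 in the other 5.

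**Figure D5:**
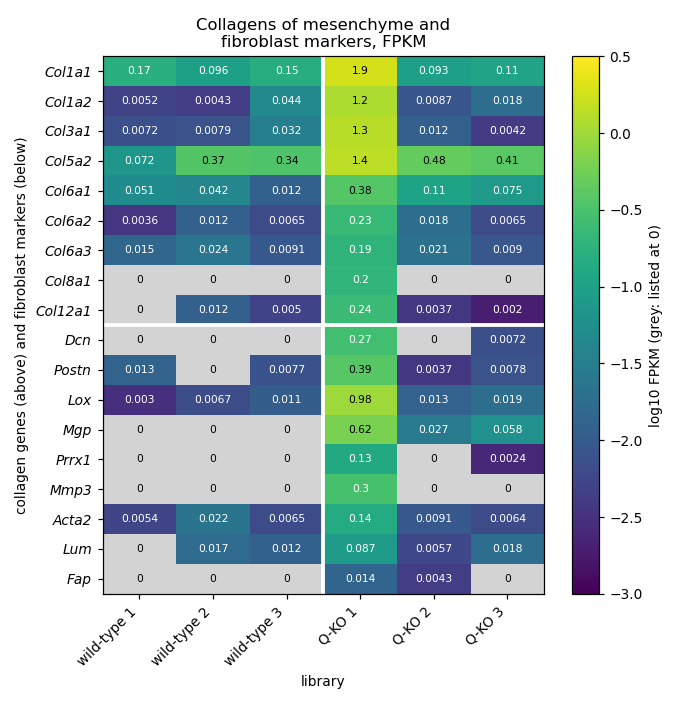
FPKM of 9 collagen genes (above the white line) and 9 of the 20 fibroblast markers (below it) in each library, rows chosen for their values in Q-KO replicate 1, with the value printed in each cell, the colour on a log10 scale and grey for a listed 0. The Q-KO 1 column is the highest in these rows by that choice, and 7 of the 20 markers, not drawn, were highest in another library.

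A part of the fibroblast markers was highest in the same library. Of 20 markers 7 met the same rule, all in Q-KO replicate 1: Acta2, Dcn, Lox, Mgp, Mmp3, Postn and Prrx1. In all, 13 of the 20 had their highest value there, 4 in Q-KO replicate 2 (Cd34, Pdgfrb, Tagln and Twist1) and 1 in each wild-type library (Fbln2, Fbln1 and Thy1). Of the 17 markers below the filter, 7 had a separate, higher range in Q-KO libraries and 0 a lower one. These 7 were Cd34, Fbn1, Lox, Mgp, Pdgfrb, Tagln and Twist1. Of all genes below the filter and above 0 in some library, 18.2% had a higher and 4.16% a lower separate range. Cd34, a surface protein of stromal and vessel cells, was at 0.330, 0.168 and 0.119 FPKM in the wild type against 1.45, 1.53 and 1.2 FPKM in Q-KO libraries. Thy1, a surface protein of fibroblasts and other cells, was at 1.42, 1.83 and 2.75 FPKM against 1.36, 0.828 and 0.819 FPKM, with each Q-KO value below each wild-type one (limma adjusted p = 0.196). Lox, the enzyme that crosslinks collagen, was at 0.979 FPKM there and at most 0.0186 FPKM elsewhere, and the matrix proteoglycan gene Dcn at 0.272 FPKM against at most 0.0072 FPKM. Of the 20 markers 6, 7 and 6 were listed at 0 in wild-type replicates 1, 2 and 3, and 0, 4 and 2 in Q-KO replicates 1, 2 and 3. Dcn, Fap, Mgp, Mmp3 and Prrx1 were at 0 in all 3 wild-type libraries. The summed FPKM of the list was 17.0 to 30.7 in wild-type and 20.4 to 23.2 in Q-KO libraries, most of it from Fbln1 and Fbln2, which all 6 libraries expressed. Only 3 of the 20 markers passed the filter, and 0 of them changed (1 at an unadjusted limma p under 0.05). Without Fbln1, Fbln2 and Thy1 it was 1.31 to 2.44 FPKM in wild-type, 8.53 FPKM in Q-KO replicate 1, and 5.82 and 4.67 FPKM in Q-KO replicates 2 and 3. The part of fibroblasts in the collagen values of Q-KO replicate 1 was not tested. Without this library the difference of the log2 summed fibrillar FPKM was 0.05 in place of 0.48, while that of the basement membrane sum was 0.19 in place of 0.25. Without Q-KO replicate 2, wild-type replicate 2 or Q-KO replicate 3 the basement membrane difference was 0.15, 0.16 or 0.39, and after median-of-ratios scaling 0.11. The fibrillar one was 0.79 without Q-KO replicate 3.

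Markers of primitive and parietal endoderm, cells that secrete much type IV collagen and laminin, were low. The 16 markers summed to 8.40 to 14.4 FPKM in the wild type against 11.3 to 14.6 FPKM in Q-KO libraries, of which Srgn and Fst, the 2 that were tested, made up most. Neither changed (1 at an unadjusted limma p under 0.05). Gata6, a defining factor of this lineage, did not exceed 0.268 FPKM, and its relative Gata4 was at 0.662 to 1.09 FPKM. Dab2, an endocytic adaptor of this lineage, was at 0.0534, 0.0703 and 0.123 FPKM in the wild type. In Q-KO libraries it was at 1.24, 0.443 and 0.294 FPKM, each value above each wild-type one. Of the 14 markers below the filter, 6 had a separate, higher range in Q-KO libraries and 0 a lower one. These stand beside 18.2% and 4.16% of all genes below the filter and above 0 in some library. Afp was listed at 0 in all 3 wild-type libraries and at 0.0303 to 0.143 FPKM in the Q-KO ones. Without Srgn and Fst the sum was 2.06 to 3.01 FPKM in the wild type against 3.85 to 5.56 FPKM in Q-KO libraries. The part of such cells in the laminin and collagen values was not tested.

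Among genes that act with these chains, calls were made in the list of proteases and inhibitors and in none of the other 3 lists. In those, few would be called at the share of 4.06% over all genes. Counts at an unadjusted limma p under 0.05, given below for these lists, stand beside 21.5% of all genes tested. Of 18 other basement membrane components 11 were tested and 0 changed (3 at an unadjusted limma p under 0.05), with a median log2 change of 0.21. Sparc, a collagen-binding glycoprotein and the most abundant of them, was at 132 ± 45.1 FPKM in the wild type against 148 ± 23.7 FPKM in Q-KO ones (mean ± SD of 3 libraries each). Npnt, an integrin ligand singled out once its values were known, stood at 0.940, 1.63 and 0.312 FPKM against 2.63, 3.43 and 2.99 FPKM (limma log2 change 1.09, adjusted p = 0.064). Of 18 receptors for laminin or collagen 11 were tested, 0 changed (3 at an unadjusted p under 0.05), and the median was 0.20. Rpsa was the most abundant of these, at 1549 ± 87.7 and 1206 ± 277 FPKM, an uncertain value because this ribosomal protein gene has many near copies. Bcam, a receptor for the laminin alpha5 chain singled out once its values were known, stood at 48.8, 33.1 and 26.2 FPKM against 60.1, 71.0 and 77.6 FPKM. Each Q-KO library was above each wild-type one (limma log2 change 0.97, SE 0.22, adjusted p = 0.0553). Ddr2, a receptor of the same list, went the other way, with each Q-KO value below each wild-type one (limma log2 change -0.69, adjusted p = 0.132).

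Of 30 genes for folding, modifying and crosslinking collagen chains 17 were tested, 0 changed (5 at an unadjusted p under 0.05), and the median log2 change was 0.18. Ppib, a proline isomerase of the endoplasmic reticulum and the most abundant of these, was at 251 ± 11.3 and 289 ± 54.4 FPKM. Of the 17 tested, 4 had a separate, higher range in Q-KO libraries and 1 a lower one, beside 18.2% and 9.44% of all genes tested. The largest change was that of Fkbp10, at 0.903, 0.717 and 0.907 FPKM against 1.97, 2.45 and 1.99 FPKM (limma log2 change 0.77, adjusted p = 0.0517). Serpinh1, the collagen chaperone HSP47, singled out once its values were known, stood at 23.0, 82.1 and 14.5 FPKM in the wild type against 35.7, 46.4 and 51.7 FPKM in Q-KO libraries, where the spread of the wild-type libraries enclosed all Q-KO values.

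Among 14 matrix metalloproteases, cathepsins and inhibitors 7 were tested and 2 rose, Mmp2 and Mmp14, with a list median of 0.37. Mmp2, gelatinase A, which cleaves type IV collagen, was at 1.05, 1.42 and 1.17 FPKM in the wild type against 3.67, 3.15 and 2.76 FPKM in Q-KO libraries (limma log2 change 0.92, SE 0.17, adjusted p = 0.0306). Mmp14, the membrane protease that activates pro-Mmp2, was at 1.94, 2.44 and 3.50 FPKM and at 5.19, 6.04 and 6.79 FPKM (limma log2 change 0.97, SE 0.20, adjusted p = 0.0402). Each Q-KO library was above each wild-type one for both. The call of Mmp2 was lost without wild-type replicate 1, Q-KO replicate 1, Q-KO replicate 2 or Q-KO replicate 3 (adjusted p 0.069 to 0.152). That of Mmp14 was lost without wild-type replicate 1, wild-type replicate 2 or any 1 Q-KO replicate (adjusted p 0.0813 to 0.192), and with no filter (0.0866), median-of-ratios scaling (0.0595) or quantile normalization (0.058). Ctsl, a lysosomal cathepsin and the most abundant of the list, was at 114 ± 23.0 and 158 ± 35.3 FPKM (limma adjusted p = 0.24).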

How the data were processed

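FPKM values for all 6 libraries were deposited by the authors in 1 table keyed by gene symbol. The submitters' processing notes list Cufflinks, STAR 2.5, bcl2fastq 2.16 and CASAVA, and mm9 as build, without saying what each did. For annotation and strand setting the sources used here give nothing. Cufflinks estimates can fail, so a listed 0 need not be an absence. After 1 stray header row was dropped, 24043 rows remained. Columns were matched to samples by title.

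Genes averaging at least 1 FPKM were tested on log2(FPKM + 1) with limma 3.58.1 in R 4.3.3 (trended eBayes, two-sided, Benjamini-Hochberg, threshold 0.05). Such a fold understates the change of low genes, and a gene low in 1 group can pass the filter through the other. No count test was used. The fit was run on simulated data with known changes and independent normal noise. These held no outlying library, so the run cannot speak for such libraries. Replicates were not blocked. Alternatives changed the pseudocount (0.1), filter, scaling, eBayes settings, block and libraries; leaving out wild-type replicate 3 with Q-KO replicate 1 was added after the data were seen. Members and lists were chosen with earlier results of these data known. Of the tested members 1 is not reported here. Named were the other tested members, members reaching 1 FPKM in a library, called genes and the most abundant gene of each related list, with Fbln1 and Fbln2 as the most abundant fibroblast markers. Any further member or marker was named after its values were seen. Figures used matplotlib 3.10.9 in Python 3.11.15.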

Additional observations from a re-analysis of the deposited data

How the results depend on the processing

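The count of members past the threshold was 0 in the reported test and in 11 of the 15 alternatives. It was 3 with no filter (Lama4, Col7a1 and Col14a1), 0 to 1 in the fits that left out 1 library each, and 1 without wild-type replicate 3 and Q-KO replicate 1 together. The gene was Col9a2 in each fit that called 1. Over all genes the count was 470, and 266 with a mean of at least 5 FPKM and 28 to 566 with 1 library left out. Below 0 after quantile normalization were Col4a2 (-0.11), Col5a1 (-0.0568), Col9a3 (-0.0548), Lama1 (-0.0599) and Lamb2 (-0.0422), and after median-of-ratios scaling Lama1 (-0.0871) and Lamb2 (-0.0682). With 1 library left out, log2 changes ran from -0.20 to 0.60 for Col18a1, -0.0396 to 0.90 for Col4a1, -0.29 to 0.53 for Col4a2, -0.0892 to 0.30 for Col5a1, -0.15 to 0.36 for Lama1, -0.0561 to 0.16 for Lamb2 and -0.0013 to 0.41 for Lamc1. Without wild-type replicate 3 and Q-KO replicate 1 together they were -0.27 for Col18a1, -0.11 for Col4a1, -0.22 for Col4a2, -0.13 for Col5a1 and -0.13 for Lama3. The cause was not tested. Deviations from the group mean had an r of -0.03, 0.01 and 0.02 between same-numbered libraries and of -0.13 to 0.17 between differently numbered ones. As each mean rests on 3 libraries, these values cannot decide whether the numbers pair them. With the replicate number as a block 333 genes and 0 members passed, and Mmp2 was lost (adjusted p = 0.0641). Fragment numbers are unknown, so no limit of detection can be given for members under 1 FPKM.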
